A study of Mus musculus with 11 samples.

Results

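Neuropeptide genes encode precursor proteins that are cut into short signalling peptides, and 9 of them were followed here through single-nucleus RNA-seq of mouse cortex: Sst (somatostatin), Vip (vasoactive intestinal peptide), Npy (neuropeptide Y), Penk (proenkephalin), Pdyn (prodynorphin), Tac1 (the substance P precursor), Cck (cholecystokinin), Crh (corticotropin-releasing hormone) and Cort (cortistatin). They were chosen as a list of symbols, with earlier results of these data known. Each of the 9 was found among the 31053 genes in the deposited matrices. The precursors are made in the cell body, cleaved by convertases, stored in dense-core vesicles and released to act on G protein-coupled receptors. In the cortex, Sst and Vip mark separate classes of GABAergic interneuron, whereas in the striatum Penk goes with projection neurons bearing the Drd2 dopamine receptor, and Pdyn and Tac1 with those bearing Drd1.

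The series held 11 mice, 1 library each, all labelled female. The study's methods give male mice for RNA-seq, but Xist, which is expressed in females, was at 793 to 1488 CPM (UMIs of a gene per 1000000 UMIs) in each library, and 4 Y-linked genes together at 1.08 to 1.75 CPM. The non-transgenic group (ikbkb+/+, n = 4) was 9.8 to 10.85 months old, the P301S group (ikbkb+/+;P301S+, n = 3) 9.15 to 10.75 months, the knockout P301S group (ikbkb-/-;P301S+, n = 2) 8.39 to 9.15 months and the active IKKβ P301S group (ikbkbCA;P301S+, n = 2) 9.8 to 10.85 months. P301S mice are the PS19 model, in which the prion promoter drives human tau with a disease mutation in neurons. IKKβ, encoded by Ikbkb, is the kinase that switches on NF-κB. By the study's methods it was deleted, or a constitutively active form was switched on from the Rosa locus, by a tamoxifen-dependent Cre in Cx3cr1-expressing cells, which in brain are mainly microglia. Mice without Cre carried the floxed alleles and served as controls, and tamoxifen was given in young adulthood. The prefix of the sample titles, read with the genotypes in the study's methods, separates 2 breeding lines, since mice titled WT or CA carry the IkbkbCA F/F allele and those titled Ctrl or KO the Ikbkb F/F allele. By this, the floxed Ikbkb line supplied 2 non-transgenic, 2 P301S and both knockout mice, and the active IKKβ line supplied 2 non-transgenic mice, 1 P301S mouse and both active IKKβ mice. The knockout and active groups thus each came from a single line.

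Raw UMIs, the molecular tags that stand for single captured RNA molecules, totalled 72007219 to 93205362 per library. After filtering, 103065 nuclei were kept, and the median nucleus of a library held between 4877.5 and 8648 UMIs. Nuclei were clustered without the 9 genes, and classes were named from markers that did not include them. Cortical inhibitory nuclei numbered 7562 (510 to 888 per mouse), excitatory nuclei 38298 (2741 to 4386) and striatal projection nuclei 7653 (337 to 1375). The tissue was labelled as cortex, but each library also held this last class, whose nuclei carry striatal markers, and its share of nuclei ran from 3.69% to 14.0%, both in the active IKKβ group. Of the inhibitory nuclei, 2064 were Sst-class, 1387 Vip-class, 1179 Lamp5 and 2502 Pvalb nuclei, where "class" in the first 2 names marks that the name rests on other genes (for example Grin3a and Elfn1, or Adarb2 and Crispld2). Of the striatal nuclei, 2443 were Drd1 and 3446 Drd2 nuclei. Ikbkb in microglia-like nuclei was at 113 CPM in each knockout mouse against 134 to 152 in P301S, 123 to 154 in non-transgenic and 151 to 166 in active IKKβ mice, and reads from the 3′ end may lie outside the deleted part. Of 112502 barcode sequences, 1599 occurred in more than 1 library.

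Positions are those of the GENCODE M21 annotation on GRCm38, the build of mm10. Sst spans chr16:23889573-23890958 on the minus strand, Vip chr10:5639218-5647617 on the plus strand and Npy chr6:49822710-49829507 on the plus strand. Penk spans chr4:4133531-4138819 (minus), Pdyn chr2:129686565-129699844 (minus) and Tac1 chr6:7554879-7565834 (plus). Cck spans chr9:121489824-121495694 (minus), Crh chr3:19693401-19695396 (minus) and Cort chr4:149125034-149126763 (minus). No annotated gene overlaps any of them on the same strand, and Penk is overlapped on the other strand, over 499 bases, by A830012C17Rik, which the matrices do not list. Counts were made over whole transcripts, so intronic reads of the nuclear RNA were included.

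The cAMP response element, TGACGTCA, is bound by CREB and was described in the promoter of Sst. RefSeq promoters (GRCm38.p6) were given for 7 of the 9 genes, the exceptions being Penk and Crh. The whole element was present in 588 of 32851 promoters (1.79%), each read from 250 bases before to 50 after the start, and among the 7 genes in Sst alone. Its core, CGTCA, or TGACG on the other strand, was present in 10.5% of all promoters within the 100 bases before the start, and in 5 of the 7 genes: Sst, Vip, Tac1, Cck and Cort. These 100 bases are printed 5′ to 3′ along each gene's strand, with the element or its core in capitals, for the 5 genes and for Npy, which holds neither form there. The whole element counts as a match to the core on each strand. The starts are those of RefSeq. For Sst and Tac1 they differ from the GENCODE starts, and the printed bases lie inside the gene spans given above. A match is a description of the letters and not evidence of binding.
Sst, chr16:23890845-23890944, minus: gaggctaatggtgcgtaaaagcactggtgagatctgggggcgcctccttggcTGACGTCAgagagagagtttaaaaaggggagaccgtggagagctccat
Vip, chr10:5639118-5639217, plus: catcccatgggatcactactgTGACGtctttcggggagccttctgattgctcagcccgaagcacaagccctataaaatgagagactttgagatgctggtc
Tac1, chr6:7554961-7555060, plus: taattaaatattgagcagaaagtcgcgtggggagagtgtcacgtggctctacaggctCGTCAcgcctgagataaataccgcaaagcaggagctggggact
Cck, chr9:121495695-121495794, minus: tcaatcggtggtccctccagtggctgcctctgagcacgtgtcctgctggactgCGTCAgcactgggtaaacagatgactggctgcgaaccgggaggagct
Cort, chr4:149126764-149126863, minus: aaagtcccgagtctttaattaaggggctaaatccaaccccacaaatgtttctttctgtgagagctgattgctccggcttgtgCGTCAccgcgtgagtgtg
Npy, chr6:49822610-49822709, plus: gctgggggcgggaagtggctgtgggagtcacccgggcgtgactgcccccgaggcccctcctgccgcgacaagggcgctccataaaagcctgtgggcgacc

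Apart from Cck, which was spread more widely, the 9 genes were concentrated in 1 or a few neuronal classes. Levels are CPM, from UMIs summed over the class in 1 mouse, and all means over the 11 mice are followed by their SD. In Sst-class nuclei, Sst was at 310, 216, 246 and 177 CPM in the non-transgenic mice, 158, 334 and 590 in the P301S mice, 291 and 198 in the knockout mice and 463 and 249 in the active IKKβ mice. The mean was 294 ± 130 CPM (SD, n = 11), and the groups overlapped. Neurons that make somatostatin inhibit pyramidal cell dendrites and other interneurons. Sst RNA was also above the glial level in Pvalb nuclei, at 4.09 to 53.4 CPM. Vip, whose neurons mainly contact other interneurons, was in Vip-class nuclei at 310, 518, 363 and 199 CPM in non-transgenic, 343, 376 and 393 in P301S, 407 and 402 in knockout and 492 and 305 in active IKKβ mice. The highest and the lowest of these mice were both non-transgenic, and the mean was 373 ± 88.0 CPM (SD, n = 11).

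Npy, which encodes an inhibitory peptide widely found in cortical interneurons, was spread over more classes. In Lamp5 nuclei it was at 116, 141, 72.6 and 89.1 CPM in non-transgenic, 81.4, 128 and 109 in P301S, 83.0 and 62.8 in knockout and 201 and 110 in active IKKβ mice (mean 109 ± 39.0, SD, n = 11). In Sst-class nuclei it was at 43.6 to 92.6 CPM with a mean of 59.4 ± 16.7, and in Vip-class and Pvalb nuclei it was lower. Within the Sst-class, a cluster of 196 nuclei led by Nos1, Hhip and Sox6 held 283 CPM of Npy over all mice, against 38.4 in the main cluster of 1868 nuclei. The same small cluster held 560 CPM of Sst against 264. Nos1 encodes neuronal nitric oxide synthase, which is known from long-range cortical GABAergic neurons that also contain Sst and Npy. In this cluster 6 cortical inhibitory and 4 striatal markers were raised. Whether its nuclei came from cortex or from the striatal tissue in the libraries was not tested.

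Pdyn, the precursor of dynorphin, was seen in both the cortical Sst-class and the striatal Drd1 nuclei. In Sst-class nuclei it was at 26.6, 31.0, 34.1 and 23.0 CPM in non-transgenic, 33.3, 19.8 and 36.3 in P301S, 24.0 and 39.4 in knockout and 45.2 and 38.5 in active IKKβ mice (mean 31.9 ± 7.88, SD, n = 11). In Drd1 nuclei the mean was 24.7 ± 7.77, with a range of 16.2 to 37.7 CPM. These 2 classes differed by less than the spread between mice in the level of Pdyn. Penk, the enkephalin precursor, was in Drd2 nuclei at 280, 230, 160 and 217 CPM in non-transgenic, 213, 212 and 222 in P301S, 203 and 180 in knockout and 221 and 222 in active IKKβ mice. Its mean there was 215 ± 30.1 CPM (SD, n = 11), against 7.16 ± 3.03 in Drd1 nuclei. A second site of Penk was the Vip-class, with 32.8 ± 9.70 CPM.

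Tac1 was highest among the named classes in Drd1 nuclei, at 89.0, 51.3, 56.0 and 38.0 CPM in non-transgenic, 82.0, 67.6 and 73.4 in P301S, 45.3 and 49.2 in knockout and 70.5 and 53.4 in active IKKβ mice. The mean was 61.4 ± 16.1 CPM (SD, n = 11), and the 3 P301S mice lay within the range of the non-transgenic mice. In the cortex Tac1 was found mainly in Pvalb nuclei, the fast-spiking basket and chandelier cells, at 24.9 ± 7.09 CPM. An unnamed cluster of 535 nuclei led by Drd3, Gpr149 and Casz1 held 110 CPM of Tac1 over all mice, more than any named class.

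Cck differed from the other 8 genes in standing well above the free-RNA level in excitatory nuclei. In this class it was at 32.2, 21.4, 25.5 and 24.5 CPM in non-transgenic, 25.5, 23.7 and 34.1 in P301S, 27.4 and 24.3 in knockout and 34.2 and 24.0 in active IKKβ mice, with a mean of 27.0 ± 4.44 (SD, n = 11) from 11828 UMIs. Among excitatory subclasses, the claustrum or layer 6b nuclei had 43.4 ± 13.0 CPM, upper-layer nuclei 31.4 ± 4.75 and layer 4 and 5 nuclei 30.3 ± 5.68, and these 3 overlapped. Layer 6 corticothalamic nuclei were lower at 9.68 ± 2.34, and near-projecting nuclei had 6.01 ± 3.50 CPM. No ratio to glia was computed for the excitatory subclasses. Whether Cck in these lower subclasses stood above the free-RNA level was not tested. In Vip-class nuclei Cck reached 74.2 ± 25.3 CPM with a range of 37.5 to 123.

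Crh, the stress hormone precursor, was highest in Vip-class nuclei, at 23.0, 24.3, 17.7 and 13.5 CPM in non-transgenic, 20.8, 24.5 and 38.5 in P301S, 20.8 and 21.7 in knockout and 55.2 and 40.7 in active IKKβ mice. Both active IKKβ mice lay above the other 9, and the mean over all was 27.3 ± 12.3 (SD, n = 11). Cort, a close relative of somatostatin that binds the same receptors, was at 11.1, 10.9, 13.0 and 6.35 CPM in non-transgenic, 3.01, 14.5 and 15.8 in P301S, 10.2 and 4.31 in knockout and 9.87 and 5.46 in active IKKβ mice in Pvalb nuclei. The 3 P301S mice held both the lowest and the highest of these values, which rest on 228 UMIs in all. In Sst-class nuclei Cort was at 7.07 ± 3.09 CPM, a difference from Pvalb nuclei (9.49 ± 4.21) smaller than the spread between mice.

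**Figure D1:**
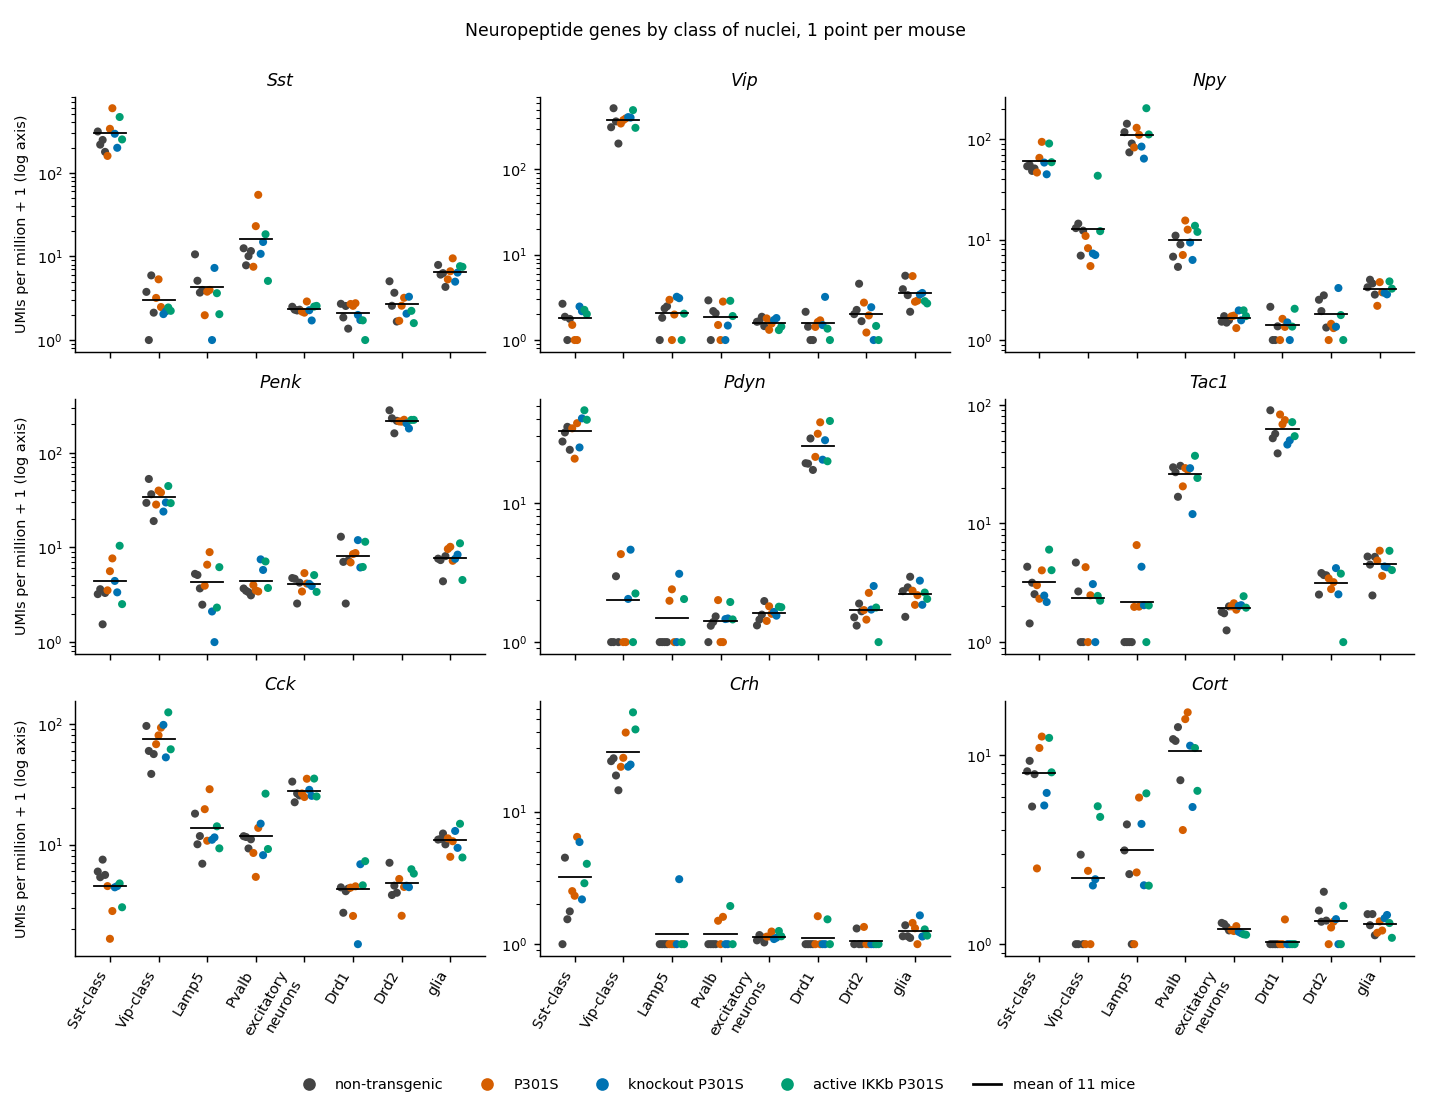
Level of the 9 genes by class, in CPM plus 1 on a log axis, with 1 point per mouse coloured by genotype and a black line at the mean of 11 mice. Vip rises far above the glial level in the Vip-class alone, Penk peaks in Drd2 nuclei (mean 215) and Cck is spread over excitatory and inhibitory classes.

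RNA released from broken cells enters all droplets, so the level of each gene in glia-like nuclei, which should lack these precursors, was measured as the free-RNA level. It was compared per nucleus, because glia held a median of 2083 to 3159 UMIs per mouse against 6641 to 11575 in inhibitory nuclei. The 32601 glia-like nuclei held 16.9 UMIs of Sst per 1000 nuclei (557 UMIs), 7.47 of Vip, 6.73 of Npy, 20.3 of Penk and 29.6 of Cck, each a mean over the 11 mice. For Tac1 the value was 10.7, for Pdyn 3.71, for Cort 0.843 and for Crh 0.750 (25 UMIs). The level was similar in different glial types. Cck stood at 26.7 UMIs per 1000 nuclei in microglia, 29.9 in oligodendrocyte precursors, 30.3 in oligodendrocytes and 30.7 in astrocytes, and Penk ran from 18.4 to 21.4 in these 4 types. Tac1 was less even, with 19.5 in oligodendrocyte precursors and 7.30 to 10.5 in the other 3.

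Measured this way, Vip in Vip-class nuclei was 352-fold above glia, Crh in the same class 259-fold, Sst in Sst-class nuclei 164-fold, Npy in Lamp5 nuclei 136-fold, Cort in Pvalb nuclei 106-fold and Penk in Drd2 nuclei 104-fold. The ratio was 83.4 for Pdyn in Sst-class nuclei, 71.6 for Pdyn in Drd1 nuclei, 61.1 for Tac1 in Drd1 nuclei, 22.3 for Tac1 in Pvalb nuclei, 17.7 for Cck in Vip-class nuclei and 10.6 for Cck in excitatory nuclei. All of these pairs were above glia in 11 of 11 mice. Other pairs stood closer to the free-RNA level. In excitatory nuclei the ratio to glia was 0.909 for Sst, 0.943 for Vip, 1.03 for Tac1 and 1.17 for Npy, above glia in 4 to 7 of 11 mice. It was 1.81 for Penk, 1.96 for Pdyn and 2.67 for Cort, each above glia in 11 of 11 mice, and 2.15 for Crh, above in 9. In striatal nuclei it was 0.899 for Sst, 1.02 for Vip and 0.967 for Npy, above glia in 4 or 5 mice, and 1.24 for Cck, 2.51 for Cort and 3.26 for Crh, each above in 9. Nuclei of these classes are deeper than glia, and whether the ratios above 1 reflect expression was not tested.

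The share of nuclei with at least 1 UMI gave the same picture for the leading pairs of gene and class. Each nucleus was thinned to 1500 UMIs, which left out 2062 of the glia-like and 81 of the inhibitory nuclei as too shallow. Vip was then seen in 36.5% ± 6.26 of Vip-class nuclei (SD, n = 11; 60.8% before thinning), against 0.419% of glia. Sst was seen in 29.1% ± 7.05 of Sst-class nuclei (73.2% before thinning), against 0.929% of glia. For Npy the share was 13.7% of Lamp5 nuclei against 0.356% of glia, for Penk 26.9% of Drd2 nuclei against 1.08%, and for Tac1 8.29% of Drd1 nuclei against 0.566%. Cck was detected in 7.95% of Vip-class and 3.94% of excitatory nuclei, against 1.61% of glia. For Pdyn the share was 3.98% of Sst-class nuclei against 0.181% of glia, for Crh 4.00% of Vip-class nuclei against 0.0300% and for Cort 1.49% of Pvalb nuclei against 0.0512%. The pairs closer to the free-RNA level did not all keep their ratios above 1. In excitatory nuclei the thinned share was 0.629% for Penk, 0.0995% for Pdyn, 0.0409% for Cort and 0.0263% for Crh, each below glia. In striatal nuclei Cck (0.625%) and Cort (0.0334%) were below glia, and Crh (0.0399%) was above. Thinning removes a larger part of the UMIs, free RNA included, from these deep nuclei than from glia. Sst, Vip and Npy in excitatory nuclei also fell well below glia, to 0.233%, 0.130% and 0.107%. A thinned share below glia is therefore not read as a lack of expression.

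The free-RNA level followed the neuronal level of the same library for some of the genes. Across the 11 mice, UMIs per 1000 glia-like nuclei were set against UMIs per 1000 neuron-like nuclei, with permutation tests adjusted by Benjamini-Hochberg over the 9 genes. Neither measure was scaled to the depth of the library, which can move both. Free RNA was not taken off the neuronal measure, so both measures hold it, which can raise r. The part of depth and of this shared component in r was not tested. For Penk, Pearson's r was 0.85 (permutation p = 0.00173, adjusted 0.012) and Spearman's rho 0.69 (p = 0.0226, adjusted 0.0768). For Cck, r was 0.77 (permutation p = 0.004, adjusted 0.012) and rho 0.63 (p = 0.0434, adjusted 0.0977). For Sst, r was 0.77 (permutation p = 0.00348, adjusted 0.012) and rho 0.73 (p = 0.0145, adjusted 0.0768). For Vip, r was 0.77 (permutation p = 0.00644, adjusted 0.0145) and rho 0.68 (p = 0.0256, adjusted 0.0768). These 4 genes passed by Pearson's r and none of them by the rank measure after adjustment. Tac1 also passed by r (0.75, permutation p = 0.0196, adjusted 0.0353; rho 0.49, p = 0.129, adjusted 0.232), but without the 2 mice farthest from the median of the neuronal level its r was -0.06, so that relation rests on those 2 mice.

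Without the 2 farthest mice, r was 0.84 for Cck, 0.54 for Penk, 0.53 for Sst and 0.44 for Vip. For Npy r was 0.57 (permutation p = 0.0630, adjusted 0.0945) and rho 0.42 (p = 0.202, adjusted 0.303), and it did not pass. Pdyn (r = 0.23, permutation p = 0.496, adjusted 0.557; rho 0.17, p = 0.615), Crh (r = 0.15, permutation p = 0.684, adjusted 0.684; rho 0.25, p = 0.452) and Cort (r = 0.30, permutation p = 0.365, adjusted 0.47; rho 0.37, p = 0.259) did not pass either, and their glial levels rest on 121, 25 and 26 UMIs. Within the 6 mice of the floxed line alone the relation did not pass for any of the 9 genes by an exact permutation test. There r was 0.77 for Cck (exact p = 0.0611), 0.69 for Vip (exact p = 0.136), 0.40 for Sst (exact p = 0.394) and 0.23 for Penk (exact p = 0.678). It was not computed for the 5 mice of the other line.

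**Figure D2:**
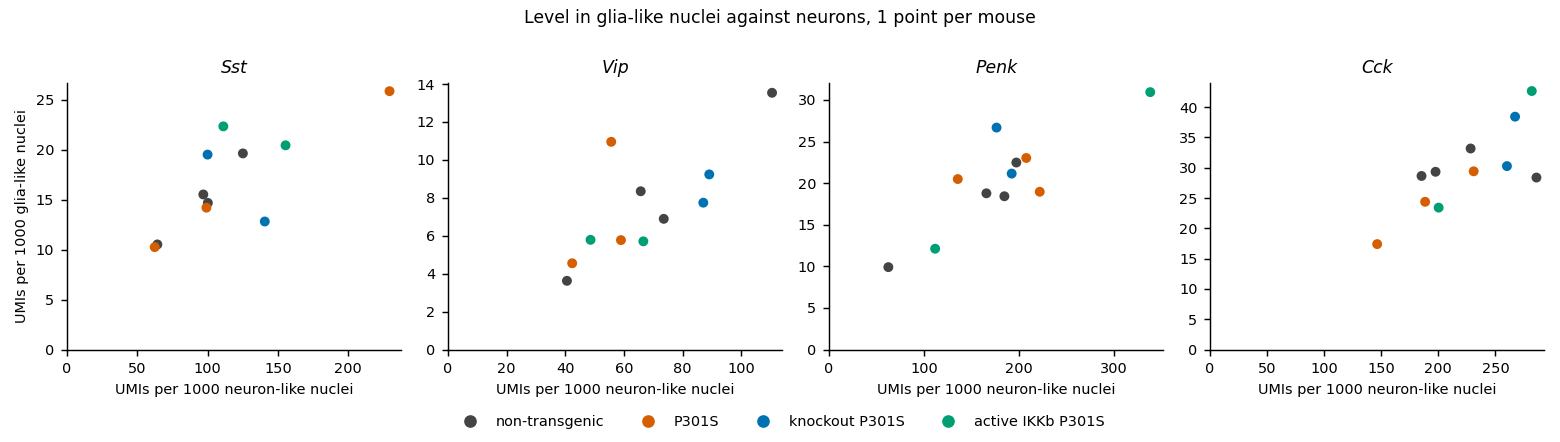
UMIs per 1000 glia-like nuclei (vertical) against UMIs per 1000 neuron-like nuclei (horizontal) for Sst, Vip, Penk and Cck, 1 point per mouse, coloured by genotype. Libraries with more neuronal RNA of a gene tended to hold more of it in glia, with r between 0.77 and 0.85.

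The genotypes were compared here to ask whether tau, or the state of microglial IKKβ on top of tau, moved these genes in neurons. Raw UMIs were summed per mouse and class and tested by edgeR's quasi-likelihood test over all genes that passed its filter on low counts. Calls needed a Benjamini-Hochberg adjusted p under 0.05 and a log2 fold change beyond 0.1 in either direction. The knockout and active IKKβ contrasts share the P301S mice as controls, so their values are given side by side. In bulk sums of this kind, fewer expressing nuclei and less RNA per nucleus cannot be told apart.

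None of the 9 genes was called in any of 12 comparisons in the broad classes or 18 in the subclasses. Of 164 tests of these genes, 0 were called by edgeR and 13 (7.93%) had an unadjusted p under 0.05, against 5.86% over all tests of all genes; DESeq2 called 0 of the 75 tests in the broad classes for which it gave an adjusted p, and it gave none for 17 others. Few genes were called at all. In cortical inhibitory nuclei, where all 9 genes could be tested among 13760, the share of genes called was 0.0145% for P301S against non-transgenic mice, 0% for the knockout, 0.00727% for active IKKβ and 0.0363% for all 7 P301S carriers against non-transgenic mice. In excitatory nuclei all 9 were tested among 18054 genes, and the shares were 0.0388%, 0%, 0.00554% and 0.0388% in the same order. In striatal nuclei 5 were tested (Sst, Penk, Pdyn, Tac1 and Cck) among 13367 genes, and the shares were 0.00748%, 0%, 0% and 0.015%. A count of 0 among so few genes is near this background and is no result about the 9 genes.

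The shares were similar in the subclasses, which were tested for the first 3 contrasts. For P301S against non-transgenic mice the share of genes called was 0.0187% in Sst-class, 0% in Vip-class, 0.0111% in Lamp5, 0.0181% in Pvalb, 0.00909% in Drd1 and 0.00878% in Drd2 nuclei. For the knockout it was 0.0333% in Lamp5 and 0% in the other 5 subclasses, and for active IKKβ 0.00936% in Sst-class, 0.0634% in Pvalb and 0% in the other 4. Between 2 (Lamp5 and Drd2) and 6 (Pvalb) of the 9 genes passed the filter in a subclass, so 0 calls there covers only those.

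In cortical inhibitory nuclei the log2 fold changes for P301S against non-transgenic mice ran from -0.17 for Tac1 to 0.76 for Sst, with 6 of the 9 genes above 0 and a median of 0.12, against 0.00 over all genes. Sst was at 88.4, 61.9, 76.2 and 48.7 CPM in the non-transgenic mice and at 53.0, 111 and 203 in the P301S mice in this class. Its fold change of 0.76 (SE 0.44) had a 95% interval from -0.28 to 1.80 and an adjusted p of 0.999. The interval includes 0. Without P301S replicate 3 the fold change was 0.24. For the knockout against P301S mice Sst was at 97.4 and 63.4 CPM in the knockout mice, a change of -0.54 (SE 0.54, adjusted p = 0.805 by edgeR). For active IKKβ it was at 143 and 82.0 CPM, a change of -0.11 (SE 0.53, adjusted p = 0.978 by edgeR). Without the same P301S mouse these were -0.03 and 0.40. With age as a term in the fit the knockout change of Sst turned to 0.46 (adjusted p = 0.911 by edgeR), so no direction is read from it.

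Vip had small fold changes in the same nuclei, -0.13 (SE 0.24) for P301S, 0.26 (SE 0.29) for the knockout and -0.01 (SE 0.30) for active IKKβ, with adjusted p from 0.834 to 0.999 by edgeR. Cort, with few UMIs, had wide intervals, for example from -1.71 to 0.90 in the knockout contrast. In Drd2 nuclei Penk held 222 ± 49.6 CPM in non-transgenic (SD, n = 4), 216 ± 5.47 in P301S (SD, n = 3), 191 ± 16.7 in knockout (SD, n = 2) and 221 ± 0.149 in active IKKβ mice (SD, n = 2). These group means all lie within the range of the 4 non-transgenic mice. The log2 fold changes of Penk were -0.07 (95% interval -0.35 to 0.22) for P301S, -0.15 (-0.49 to 0.19) for the knockout and 0.08 (-0.26 to 0.42) for active IKKβ, the narrowest intervals among the genes in their leading classes. Inside the Sst-class, the P301S change of Sst was 0.53 with an interval from -0.50 to 1.57, and that of Pdyn was 0.00 (-0.42 to 0.43).

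The smallest adjusted p of any member was 0.460, for Npy in Vip-class nuclei under active IKKβ. Npy was there at 9.85, 7.20 and 4.45 CPM in P301S and at 42.1 and 11.1 in active IKKβ mice, a log2 fold change of 1.77 (SE 0.50). Only the active IKKβ mouse at 42.1 stood clearly above the 3 P301S mice. The other, at 11.1, was close to the highest P301S mouse, at 9.85, and within the non-transgenic values of 5.91 to 13.4 CPM. The Vip-class sums of the P301S and active IKKβ mice held 674880 to 913504 UMIs. A level of 1 CPM thus stood for less than 1 UMI, and these values rest on low counts. Crh in the same nuclei and contrast had a fold change of 0.79 (SE 0.29, unadjusted p = 0.0109 by edgeR, adjusted p = 0.684). Its group means were 19.6 ± 4.98 CPM in non-transgenic (SD, n = 4), 27.9 ± 9.35 in P301S (SD, n = 3), 21.2 ± 0.575 in knockout (SD, n = 2) and 47.9 ± 10.2 in active IKKβ mice (SD, n = 2).

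All 7 P301S carriers were also set against the 4 non-transgenic mice. In cortical inhibitory nuclei Crh (0.55, SE 0.22, adjusted p = 0.630 by edgeR) and Pdyn (0.40, SE 0.18, adjusted p = 0.681) had unadjusted p under 0.05. Crh was at 2.48 to 4.49 CPM in the non-transgenic mice and at 3.71 to 7.89 in the carriers, so the groups overlapped. For Pdyn the non-transgenic mice were at 6.49 to 10.6 and the carriers at 6.28 to 13.8 CPM. In Drd1 nuclei, Pdyn was at 18.3, 18.1, 28.0 and 16.2 CPM in non-transgenic and at 20.4, 30.3 and 36.9 in P301S mice (0.60, SE 0.23, unadjusted p = 0.0167 by edgeR, which did not pass after adjustment). Tac1 in Drd1 nuclei was lower in both knockout mice than in the 3 P301S mice (-0.60, SE 0.27, adjusted p = 0.681 by edgeR). Cck in Lamp5 nuclei was at 18.6, 9.76 and 27.7 CPM in P301S mice, and it was below this mean in each other group, with fold changes of 0.79 for P301S, -0.91 for the knockout and -0.88 for active IKKβ and adjusted p of 0.771 to 0.997.

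**Figure D3:**
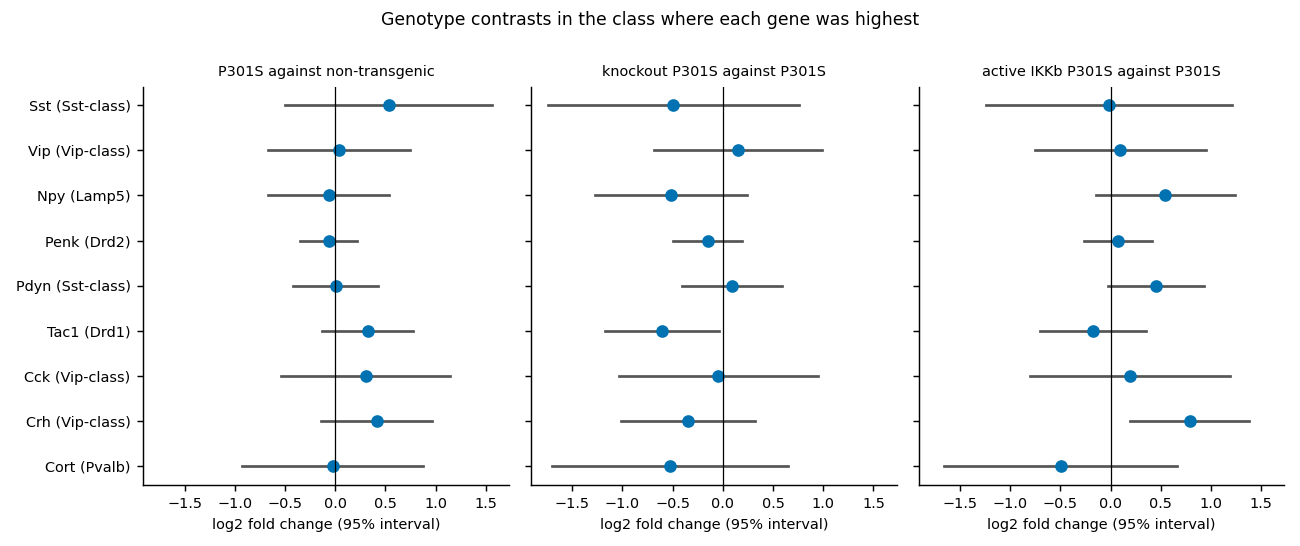
Log2 fold change of each gene with its 95% interval (horizontal) in the 3 contrasts, each gene in the class where it was highest. Penk in Drd2 nuclei has a narrow interval in each contrast, while those of Sst and Cort are wide, and no gene was called.

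**Figure D4:**
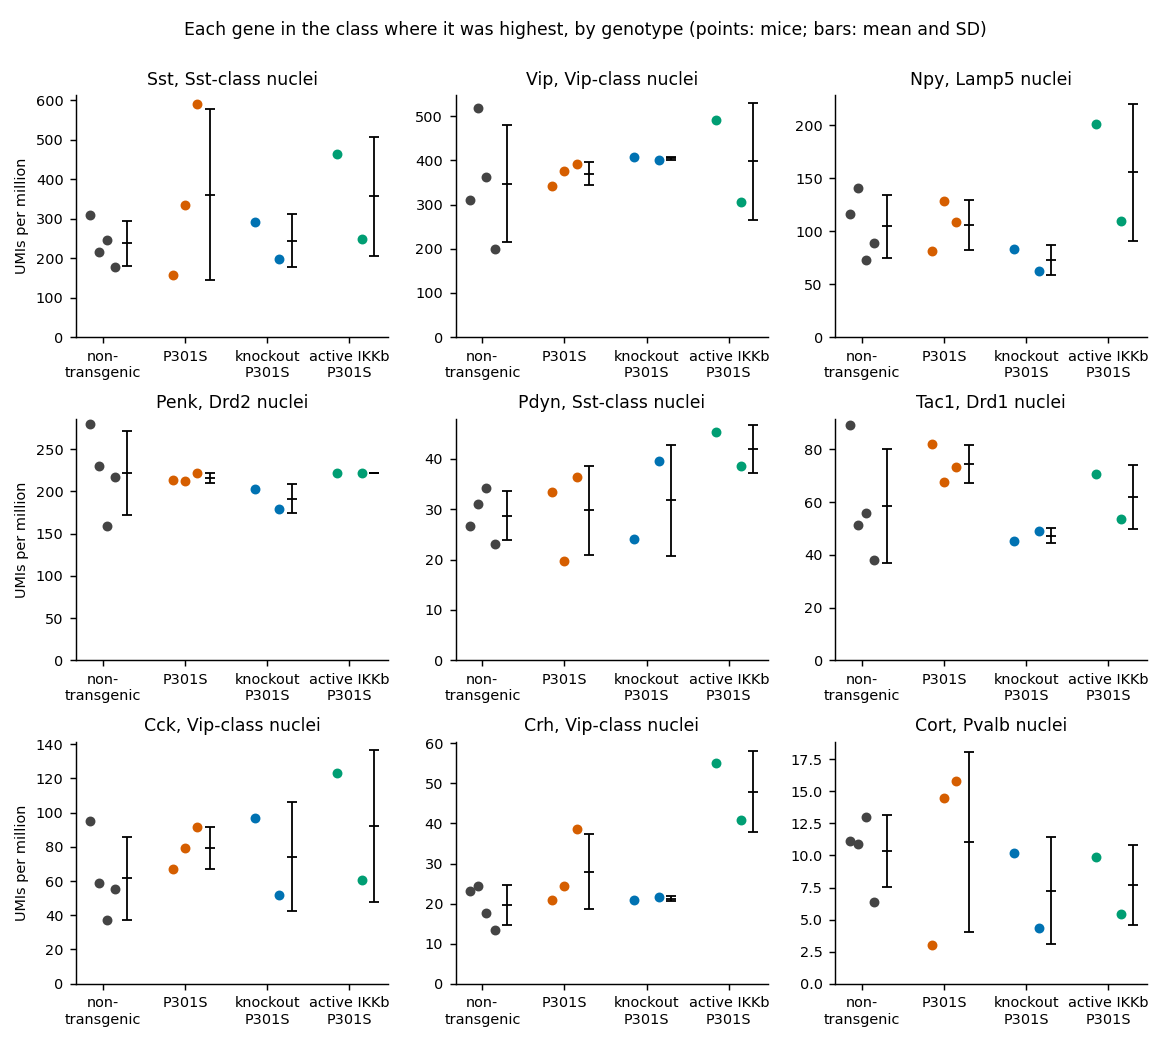
Level of each gene in CPM (vertical) in the class where it was highest, by genotype, with 1 point per mouse and bars for the mean and SD. The 3 P301S mice overlap with the 4 non-transgenic mice for each gene, and Crh in Vip-class nuclei is highest in the 2 active IKKβ mice, at 55.2 and 40.7.

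The level in the whole inhibitory class also moves with the shares of its subclasses. Pvalb nuclei were 35.0% ± 1.55 of inhibitory nuclei in non-transgenic (SD, n = 4) and 29.5% ± 1.14 in P301S mice (SD, n = 3), a difference of -5.51 points (two-sided exact permutation p = 0.0286, the smallest this design can give; adjusted 0.171 over 12 tests). Lamp5 nuclei were 3.65 points higher (exact permutation p = 0.0286, adjusted 0.171) and Sst-class nuclei 3.54 points higher (exact permutation p = 0.0571, adjusted 0.171) in P301S mice, and the difference for Vip-class nuclei was -1.78 points (exact permutation p = 0.0571, adjusted 0.171). None of the 12 tests passed after adjustment, and with 3 against 2 mice the knockout and active IKKβ contrasts could not go below 0.1. The part of these shares in the levels of Sst and Npy in the whole class was not tested. Levels within subclasses do not depend on these shares. They can still move with the mix of clusters inside a subclass, which was not examined.

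The spread between mice of the same genotype differed by gene and class. Their mean levels differ from those of other genes, and low counts can raise this measure, so it is given as a description. In edgeR's fit of cortical inhibitory nuclei, the coefficient of variation between mice beyond counting error had a median of 0.0950 over 13760 genes. It was 0.322 for Cort, a value exceeded by 0.836% of genes, and 0.268 for Sst (2.07% of genes above). For Cck it was 0.206 (6.63%), for Tac1 0.204 (6.99%), for Penk 0.189 (9.43%), for Vip 0.165 (14.3%), for Npy 0.164 (14.5%), for Pdyn 0.157 (16.4%) and for Crh 0.151 (18.4%). All 9 stood above the median in this class. Within the Sst-class alone the value for Sst was 0.257, so the spread of Sst was about as wide inside its own class. In Pvalb nuclei Sst reached 0.373. The leading classes of the other genes ran from wide to near the middle of all genes. Cort in Pvalb nuclei had 0.281 (1.39% of genes above), Cck in Vip-class nuclei 0.212 (6.73%), Vip in Vip-class nuclei 0.189 (10.7%), Npy in Lamp5 nuclei 0.169 (12.9%), Tac1 in Drd1 nuclei 0.173 (17.9%) and Pdyn in Sst-class nuclei 0.138 (25.8%). Nearer the middle, Penk in Drd2 nuclei had 0.135, with 37.9% of genes above, Crh in Vip-class nuclei 0.125 (39.3% above) and Cck in excitatory nuclei 0.144 (38.2% above). Cort in excitatory nuclei, at 0.0933, was below the median of 0.126 there.

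**Figure D5:**
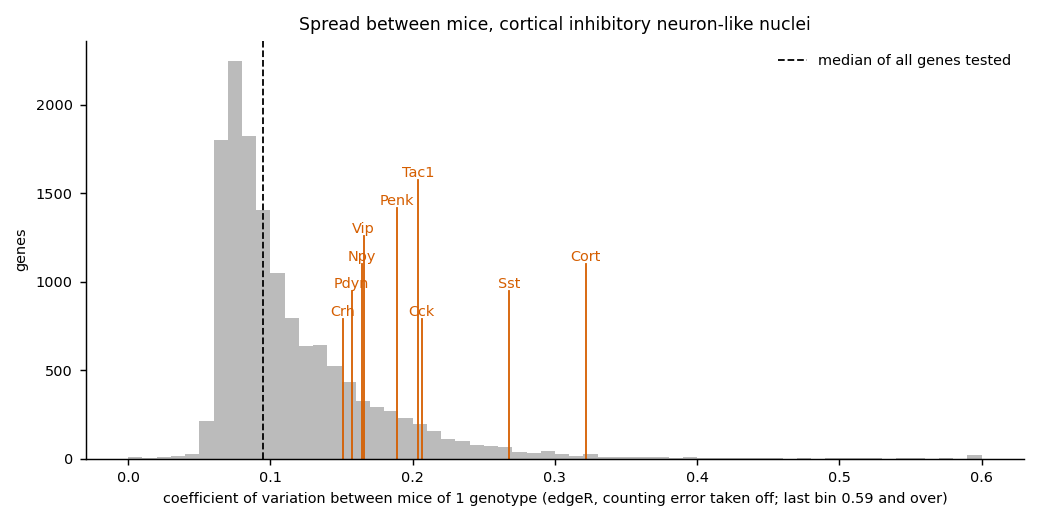
Histogram of edgeR's coefficient of variation between mice over 13760 genes in cortical inhibitory nuclei, with the 9 genes marked and the median of all genes (0.0950) dashed. All 9 genes lie to the right of the median, from Crh (0.151) to Cort (0.322).

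In cortical inhibitory nuclei, P301S replicate 3 and active IKKβ P301S replicate 1 were the highest pair of the 11 mice for 4 of the 9 genes, Sst, Npy, Crh and Cort. Sst stood at 203 and 143 CPM in these mice against at most 111 in the other 9, and Npy at 54.1 and 64.4 against at most 44.2. Cort stood at 9.68 and 8.44 against at most 8.11, and Crh at 6.83 and 7.89 against at most 6.35. Active IKKβ P301S replicate 1 was the highest mouse for Npy, Penk, Pdyn, Tac1, Cck and Crh, and the second highest for Sst, Vip and Cort. Leaving it out moved the active IKKβ fold change of Npy from 0.28 to -0.06 and of Cck from 0.21 to -0.45. That of Crh moved less, from 0.56 to 0.41. Those fits leave 1 active IKKβ mouse. The pair depended on the class. In Sst-class nuclei it was the highest for Sst, Npy and Cort, and also for Penk, which was only 1.60-fold above glia there. In Vip-class nuclei it was the highest for 0 of the genes, and the highest mice for Crh were the 2 active IKKβ mice. In Pvalb nuclei it was the highest only for Crh, on 1 and 2 UMIs, too few to rank mice. Both mice of the pair were assigned to the active IKKβ line, at 10.75 and 10.85 months, as was non-transgenic replicate 3 (10.85 months), which had 76.2 CPM of Sst. Their inhibitory nuclei had medians of 7040 and 8160 UMIs, and active IKKβ replicate 1 had the largest share of striatal nuclei. The part of line, age, depth and dissection in these levels was not tested. At the other end, non-transgenic replicate 4 was the lowest of the 11 mice for Sst, Vip, Penk and Crh in these nuclei.

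The fold change of Sst between P301S and non-transgenic mice in cortical inhibitory nuclei was 0.10 in the floxed line and 1.57 in the active IKKβ line. The second value rests on P301S replicate 3 alone, so no difference between the lines was read from it.

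Pairs of the genes were detected together in the same nuclei to different degrees. A deeper nucleus has a higher chance of showing any gene, so the median depth is given beside each share. In Sst-class nuclei, Npy was seen in 33.2% of nuclei with Sst (median 9367 UMIs) and 13.4% of those without (8220). It was seen in 55.9% of nuclei with Cort (10219.5 UMIs) against 26.4% without (8961.5), but in 18.3% of nuclei with Pdyn (9504.5) against 29.6% without (8903.5). Only the Pdyn pair ran against the difference in depth among these 3. In the Vip-class, nuclei with Vip were slightly shallower (6233.5 against 6562 UMIs). Crh was seen in 16.8% of them and in 5.59% of nuclei without Vip, whereas Cck was seen in 16.2% and 29.4%. In Pvalb nuclei, Tac1 was seen in 32.6% of nuclei with Cort (10321 UMIs) against 15.2% without (8975), and in Drd1 nuclei in 48.5% of nuclei with Pdyn (10523) against 37.9% without (10181.5). Nuclei are not replicates, so these shares carry no test, and the part of depth in them was not tested.

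Across 34 neuronal clusters, the genes whose levels followed each member most closely were found by Pearson's r of log2(CPM + 1) among 11045 genes, pooled over mice. The clusters share their libraries, and these values describe likeness only. For Sst they were Gm45025 (0.90), Crhbp (0.89) and 1110004F10Rik (0.87), and for Cort they were Crhbp (0.89), Eya4 (0.85) and Sox6 (0.83). Crhbp encodes the binding protein that sequesters corticotropin-releasing hormone. Vip was closest to Crh (0.90), itself a member, then Zcchc24 (0.89) and D030055H07Rik (0.87), and Crh was closest to Vip (0.90), Grpr (0.89) and Tac2 (0.85). Grpr encodes the receptor of gastrin-releasing peptide and Tac2 the precursor of neurokinin B. For Npy they were Gm3143 (0.89), Fam46a (0.88) and Acsl1 (0.85).

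The striatal members shared some neighbours. Tac1 was closest to Clic6 (0.88), Ric8b (0.87) and Rgs9 (0.86), and Pdyn to Stk32a (0.77), Rgs9 (0.77) and Ric8b (0.74). Rgs9 encodes a regulator of dopamine receptor signalling and was among the markers used to name striatal nuclei. For Penk they were Cyld (0.81), Gripap1 (0.80) and Meis1 (0.79). The values were lowest for the widely spread Cck, with Mthfd1l, Medag and Gm40578 at 0.70 each.

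Other genes of neuropeptide signalling were followed through 3 lists of 22 genes each. Of other neuropeptide genes, 4 to 8 passed the filter in a broad class, of neuropeptide receptors 16 to 20, and of genes for precursor cleavage and dense-core vesicles 21 to 22. In the 12 broad comparisons 0 of them were called by edgeR in either direction, and since at most 0.0388% of all genes were called in any of these, a count of 0 is near the background and is no result about the lists. The median log2 fold change of a list lay between -0.27 and 0.20 for other neuropeptides, between -0.24 and 0.16 for receptors and between -0.03 and 0.07 for the processing genes, while the median of all genes tested stayed within 0.01 of 0. For P301S against non-transgenic mice in inhibitory nuclei, 2 of the 6 tested genes of the first list, which also holds the binding protein gene Crhbp, had positive changes and the median was -0.06. Vgf, a secreted granule protein, was at 0.31 (SE 0.15) and Pnoc, the nociceptin precursor, at 0.27 (SE 0.16). Pthlh was at -0.29 (SE 0.32), Crhbp at -0.11 (SE 0.10), Nmb at -0.07 (SE 0.29) and Tac2 at -0.04 (SE 0.24), and the adjusted p of each was 0.999 by edgeR.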

How the data were processed

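Nuclei from frozen cortex of 11 mice were profiled with 10x Chromium 3′ v3 chemistry, 1 library per mouse. The authors aligned reads with Cell Ranger 3.1.0 to a mm10 reference that includes introns, and deposited raw UMI counts per gene and called barcode. Of 114118 barcodes, 112539 passed limits of 300 to 8000 genes and a mitochondrial share of no more than 5%, and 9474 (8.42%) marked as doublets from simulated pairs were removed. Leiden clustering without the 9 genes gave 19 clusters overall and 34 of neurons. The markers, gene lists and the 9 genes were chosen with earlier results of these data known, and rules that left clusters unnamed were set after the clusters were seen. A GABAergic name needed a marker of its own among the 10 leading genes.

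Counts were summed per mouse and class and tested with edgeR 4.0.16 (quasi-likelihood, TMM, filterByExpr, 1 term per genotype, all 11 mice), after tests on simulated data. This differs from the study's test on single cells, since nuclei of a mouse are not replicates. DESeq2 1.42.0, other scaling, no filter, free RNA subtracted, doublets kept, breeding line or age as terms, the replicate block and leaving out each mouse were tried as alternatives. Named are all 9 genes in every class, and the 3 genes most like each across neuronal clusters. Classes were compared with each other as a description only, because the clustering used genes that go with the 9.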

Additional observations from a re-analysis of the deposited data

How the results depend on the processing

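In 318 refits of the 30 comparisons under the alternatives, 0 of the 9 genes were called. DESeq2 gave no adjusted p for 17 of its 92 tests of them in broad classes, or for any in Pvalb nuclei under active IKKβ. The smallest adjusted p was 0.0755, for Npy in Vip-class nuclei under active IKKβ without active IKKβ P301S replicate 2, against 0.460 with all mice. That fit leaves 1 active IKKβ mouse, assumed to vary like the other groups, so nothing is read from it. Of 1356 refitted fold changes 147 had the opposite sign, none of them called. Among them is Sst in cortical inhibitory nuclei for the knockout, at -0.54 in the fit reported and 0.46 with age as a term. For Sst in cortical inhibitory nuclei, leaving out P301S replicate 3 moved the P301S fold change from 0.76 to 0.24, and the cause was not tested. With the replicate block the largest shift of a fold change was 0.101 and the smallest adjusted p 0.636. Same-numbered mice did not deviate together (10 of 66 pairs with r above 0.1, range -0.25 to 0.28), so the numbers were not taken as a pairing. Between non-transgenic and P301S mice, the deviations were more alike within a breeding line in excitatory and inhibitory nuclei. In excitatory nuclei r was 0.0154 to 0.282 within a line and -0.251 to -0.0122 across lines. In inhibitory nuclei it was 0.0457 to 0.154 and -0.154 to -0.0074, and in striatal nuclei both kinds of pair held both signs. Deviations from a group mean sum to 0 within the group, so positive and negative values of r are tied to each other. The active IKKβ line held 1 P301S mouse, replicate 3, so no effect of line was read from these values. The fit reported had no term for line. Over all genes, 0 to 7 were called per broad comparison, against 1 to 22 by DESeq2, 0 to 321 without the filter on low counts, 0 to 27 with the breeding line as a term and 0 to 49 when 1 mouse was left out. The 49 were in inhibitory nuclei of all carriers without non-transgenic replicate 4. The median of all genes moved by at most 0.02 under any setting. For Tac1, r between glia and neurons fell from 0.75 to -0.0643 without the 2 farthest mice. Groups of 2 mice and low counts of Cort and Crh limit the precision, and counting intervals do not cover differences in dissection.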

Other observations

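Some of the neuronal clusters left unnamed also held these genes. A cluster of 1438 nuclei led by Foxp2, B020031H02Rik and Chst9 held 54.4 CPM of Penk and 50.4 of Tac1 over all mice. A cluster of 1220 nuclei led by Cpa6, Lgr6 and Dnah11 held 26.7 CPM of Penk, and 5 of the 11 mice had at least 20 nuclei in it. Its share of all nuclei was 2.07% ± 2.10 in non-transgenic (SD, n = 4), 0.953% ± 1.62 in P301S (SD, n = 3), 1.42% ± 1.77 in knockout (SD, n = 2) and 0.0252% ± 0.0218 in active IKKβ mice (SD, n = 2). The Drd3-led cluster with the highest Tac1 made up 0.337% ± 0.196, 0.633% ± 0.464, 0.535% ± 0.0407 and 0.617% ± 0.557 of nuclei in the same order. These shares were not tested between genotypes.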
